A study of Marchantia polymorpha with 12 samples.

Results

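Lipoxygenases add oxygen to polyunsaturated fatty acids, the first committed step of oxylipin synthesis, and the CYP74 family of P450 enzymes, which holds the allene oxide synthases, converts the resulting hydroperoxides. In the liverwort Marchantia polymorpha this route leads to OPDA and dinor-OPDA, and forms of the latter act as the ligand of the receptor COI1, in whose presence JAZ repressors are degraded. The substrates are fatty acids that desaturases supply, and in many plants wounding raises transcripts of genes of this route. Transcripts of 6 genes named for these enzymes are described here: the lipoxygenases MpLOX2 (Mp2g23380), MpLOX6 (Mp2g12180), MpLOX8 (Mp2g12220), MpLOX10 (Mp8g09050) and MpLOX14 (Mp8g12930), and the CYP74 gene MpCYP74N2 (Mp5g16260), for which the reference table gives MpAOS2 as a further name. They were chosen by gene ID from 20574 IDs, with earlier results of these data known. All 6 passed the low-count filter that left 13726 genes for testing. The reference table names 16 lipoxygenases and 2 CYP74 genes in all. The position of the single enzymes in the route was not measured here, and the names are taken from that table.

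RNA was sequenced from 12 libraries in 4 groups of 3. Tak-1 is a male wild-type accession, and the other genotype is a double desaturase mutant, called Mpfad3fad7 in the sample titles and Mpdes6fad5 in the growth protocol. Both were grown for 3 weeks on agar. Wounding was done with tweezers, mock plants were left intact, and the material was frozen after 2 h. Each replicate pooled 6 to 8 plants. Apical fragments without gemma cups were taken, under the tissue label leaflets. The sources used here do not say how the mutant was made or how many lines it represents. None of the 4 genes these names point to (MpFAD3, MpDES5 with the synonym MpFAD7, MpDES6 and MpFAD5) was called lower in the mutant, and MpFAD5 was called higher in mock plants (edgeR adjusted p = 0.0133). A transcript level does not show an edited sequence, so it does not check the genotype. A pair of wounded mutant columns share a header, and these libraries are called A and B.

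Totals ran from 19121900 to 30821817 counts per library. Levels below are CPM, counts scaled to a common library total, after TMM scaling, which corrects for the makeup of a library but not for gene length, so levels are compared between groups and not between genes. Correlations of log2 CPM across genes ran from 0.979 to 0.992 within groups. Mutant mock library 1 correlated with the Tak-1 mock libraries at 0.979 to 0.985, and with the other mutant mock libraries at 0.982 and 0.979. Mutant mock libraries 2 and 3 correlated with the Tak-1 mock libraries at 0.956 to 0.977, and with each other at 0.988. Of the tissue markers, MpRBCS of photosynthesis lay between 128 and 205 CPM in all libraries and was called in no contrast, and summed V chromosome genes, of the male sex chromosome, lay between 3174 and 4724 CPM. The sperm genes MpPRM and MpLC7 were at or near 0. MpDUO1, a regulator of sperm formation, rose with wounding, in Tak-1 from 0.390 to 3.15 CPM and in the mutant from 0.486 to 3.11 CPM. The part of the tissue makeup in the results below was not tested. In such bulk samples, fewer cells of a type and less RNA per cell cannot be told apart.

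After wounding, 5 of the 6 genes rose in both genotypes, MpLOX2, MpLOX6, MpLOX8, MpLOX10 and MpCYP74N2. MpLOX14 fell in the mutant. The responses of MpLOX2, MpLOX14 and MpCYP74N2 were lower in the mutant than in Tak-1, with log2 differences of -0.92, -1.0 and -0.96. MpLOX10 rose in both genotypes with a difference of -0.13 that did not pass the test. These counts stand against a broad response: in Tak-1, 54.9% of tested genes were called by edgeR's quasi-likelihood test at an adjusted p under 0.05, 30.0% as higher and 25.0% as lower, and in the mutant 51.1%, 28.6% as higher and 22.6% as lower. A call in either wound contrast is therefore common. In the difference of responses 3.29% of genes were called, 0.692% higher and 2.59% lower, while 3 of the 6 genes were called lower and none higher. The 6 genes were chosen with earlier results of these data known, so this count does not test the set. Of the 10 other lipoxygenases tested, 1 was called lower and none higher. The median log2 fold change of the 6 genes was 2.42 in Tak-1, 2.21 in the mutant and -0.52 for the difference, against medians between 0 and 0.02 over all genes tested.

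**Figure D1:**
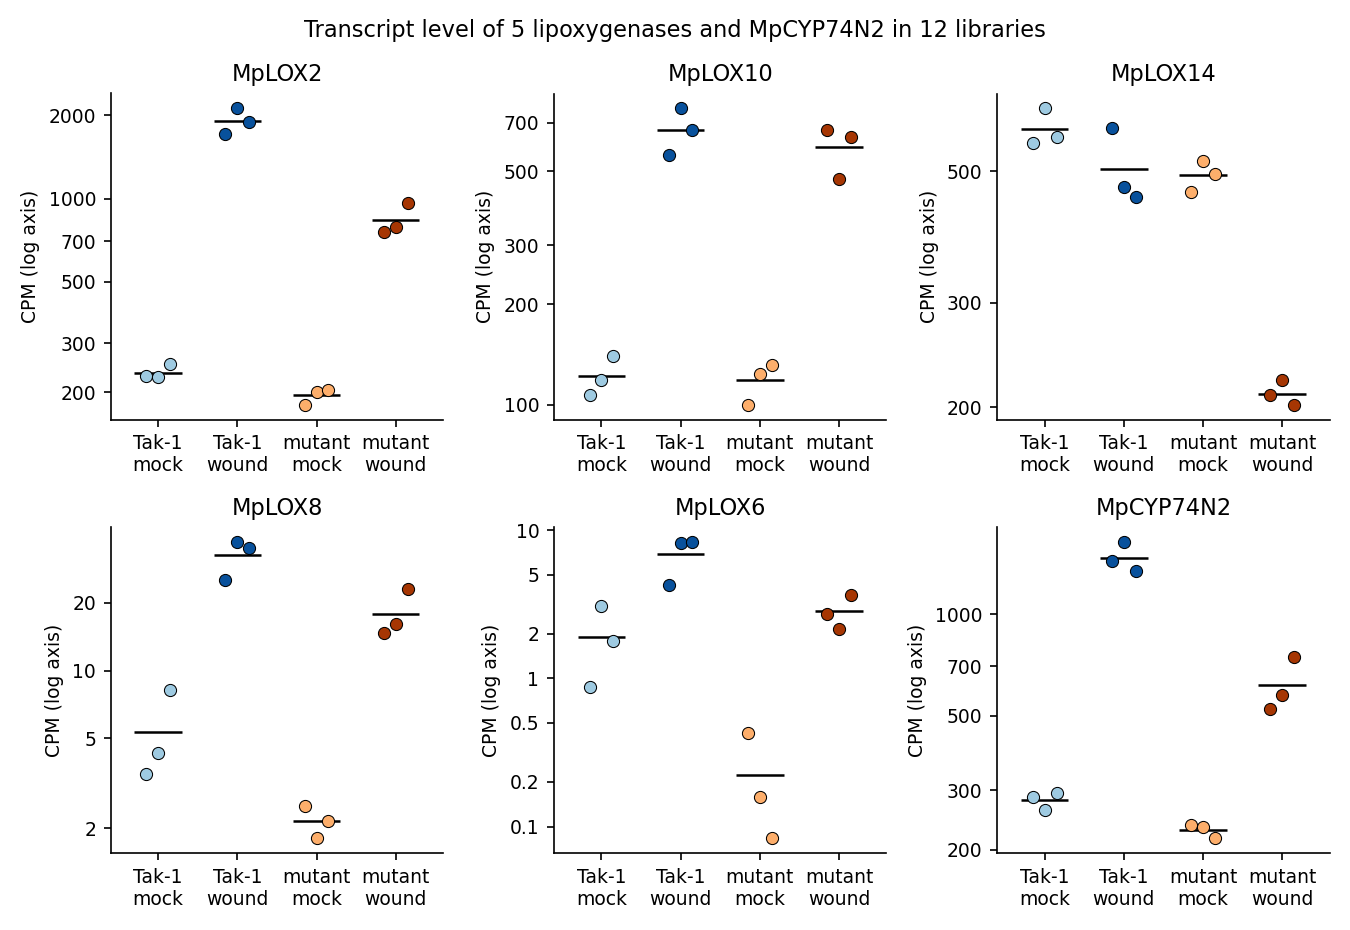
Transcript level in CPM (log axis) of each gene by group, with 1 point per library and a line at the mean of 3 libraries. The wounded Tak-1 and wounded mutant points are apart for MpLOX2, MpLOX14, MpLOX8, MpLOX6 and MpCYP74N2 and overlap for MpLOX10. Genes not called between wounded genotypes, such as MpLOX1 and MpLOX5, were also apart. The share of all genes with groups apart, here and in the text, was not counted.

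In Tak-1, libraries numbered 1 to 3 gave MpLOX2 levels of 228, 226 and 252 CPM without wounding and 1714, 2116 and 1894 CPM after it. In the mutant it had 180, 201 and 204 CPM in mock libraries 1 to 3 and 757, 787 and 966 CPM in wounded libraries 1, A and B. Every wounded library was above every mock library, and the wounded mutant libraries lay wholly below the wounded Tak-1 libraries. The rise was 8.11-fold in Tak-1 (log2 fold change 3.02 ± 0.11 SE, edgeR adjusted p = 3.31e-10) and 4.29-fold in the mutant (2.10 ± 0.11, adjusted p = 7.19e-09). The difference of the responses had a 95% interval from -1.24 to -0.60 (adjusted p = 0.00408). In mock plants the mutant libraries lay just below Tak-1 without overlap, and the difference of -0.27 did not pass the test (adjusted p = 0.177). After wounding the mutant stood at 0.438 of the Tak-1 level (-1.19 ± 0.10, adjusted p = 1.48e-05).

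MpCYP74N2 had 287, 262 and 295 CPM in mock and 1440, 1642 and 1341 CPM in wounded Tak-1 libraries. In the mutant the mock libraries had 237, 233 and 216 CPM and the wounded libraries 522, 577 and 745 CPM. As with MpLOX2, no group overlapped another, and the wounded Tak-1 libraries were the highest. The gene rose 5.24-fold in Tak-1 (2.39 ± 0.12, edgeR adjusted p = 4.33e-09) and 2.69-fold in the mutant (1.43 ± 0.12, adjusted p = 5.32e-07). The difference of responses, -0.96 ± 0.17, had an interval from -1.32 to -0.60 (adjusted p = 0.00681). The genotypes differed by -0.30 in mock plants, which did not pass the test (adjusted p = 0.186), and by -1.26 ± 0.12 after wounding (adjusted p = 2.46e-05). The ratio of MpCYP74N2 to MpLOX2 counts, in which scaling cancels, was 1.06 to 1.31 over the 6 mock libraries and 0.690 to 0.840 over the 6 wounded libraries. Between genotypes this ratio differed by -0.03 (log2) in mock and -0.08 after wounding, with exact two-sided permutation p-values of 0.90 and 0.40. With 3 libraries against 3 such a test cannot go below 0.10, and adjusted over the 6 ratio tests made the values are 1.0 and 0.80.

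MpLOX14 stood apart from the other 5 genes in direction. Its Tak-1 levels were 557, 638 and 570 CPM in mock and 591, 470 and 452 CPM after wounding. The mutant had 461, 521 and 494 CPM in mock and 210, 222 and 202 CPM after wounding. The Tak-1 groups overlapped through wounded library 1, whereas every wounded mutant library lay below all 9 other libraries. In Tak-1 the change of -0.22 ± 0.10 did not pass the test (edgeR adjusted p = 0.0669), but it did without wounded Tak-1 library 1 (-0.35, adjusted p = 0.00236). It also passed with upper-quartile scaling (-0.42, adjusted p = 0.00166), which moved the median of all genes by -0.19, without the low-count filter (adjusted p = 0.0457) and with DESeq2 (adjusted p = 0.0379). In the mutant MpLOX14 fell to 0.430 of its mock level (-1.22 ± 0.10, adjusted p = 3.76e-07). The difference of responses was -1.0 ± 0.14, with an interval from -1.29 to -0.70 (adjusted p = 0.00183). Between genotypes MpLOX14 differed by -0.26 in mock plants, which did not pass the test (adjusted p = 0.167), and by -1.26 ± 0.10 after wounding (adjusted p = 6.93e-06).

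The count ratio of MpLOX2 to MpLOX14 lay between 0.355 and 0.442 in the 6 mock libraries and between 2.90 and 4.78 in the 6 wounded libraries. The genotypes overlapped within each condition in this ratio, with log2 differences of -0.01 in mock and 0.05 after wounding (exact two-sided permutation p = 1.0 and 0.90).

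MpLOX10 had 107, 119 and 140 CPM in mock and 560, 772 and 664 CPM in wounded Tak-1 libraries. The mutant had 100, 124 and 132 CPM in mock and 667, 473 and 632 CPM after wounding. The genotypes overlapped in both conditions, and each wounded library was above each mock library. MpLOX10 rose 5.44-fold in Tak-1 (2.44 ± 0.16, edgeR adjusted p = 4.7e-08) and 4.97-fold in the mutant (2.31 ± 0.16, adjusted p = 1.04e-07). The interval of the difference of responses ran from -0.61 to 0.34 (adjusted p = 0.844), and that of the genotype difference after wounding from -0.50 to 0.16 (adjusted p = 0.519). These intervals bound how far the responses may differ and do not show that they are equal. The count ratio of MpLOX2 to MpLOX10 was 3.06, 2.74 and 2.85 in wounded Tak-1 libraries and 1.13, 1.66 and 1.53 in wounded mutant libraries. Those groups did not overlap, and the log2 difference was -1.02 (exact two-sided permutation p = 0.10, the smallest possible with 3 against 3, or 0.30 adjusted over the 6 ratio tests). In mock libraries the same ratio was 2.13, 1.90 and 1.80 in Tak-1 and 1.80, 1.62 and 1.55 in the mutant, with a log2 difference of -0.23 and the same exact and adjusted p-values of 0.10 and 0.30.

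**Figure D2:**
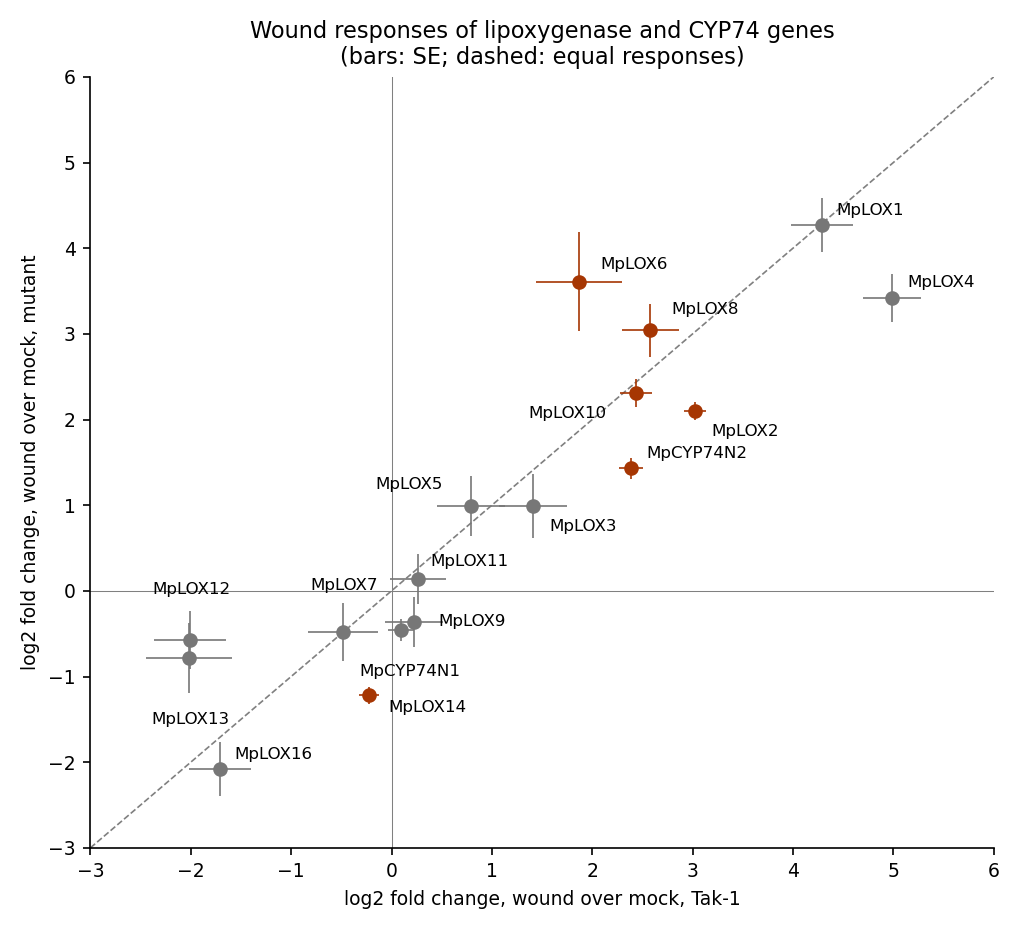
Log2 fold change of wounded over mock plants in Tak-1 (horizontal) and in the mutant (vertical) for the 15 tested lipoxygenases and both CYP74 genes, with the 6 genes described here in brown, bars of 1 SE and a dashed line of equal responses. MpLOX2, MpCYP74N2, MpLOX14 and MpLOX4, the genes called in the difference of responses, lie below the line. MpLOX10 and MpLOX1 lie on it within their SE. Other genes not called lie on both sides, such as MpCYP74N1 and MpLOX9 below and MpLOX6 and MpLOX12 above.

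MpLOX8 had lower counts. Tak-1 libraries had 3.47, 4.30 and 8.21 CPM in mock and 25.3, 37.3 and 35.0 CPM after wounding. Mutant libraries had 2.51, 1.80 and 2.16 CPM in mock and 14.7, 16.1 and 23.0 CPM after wounding. All 4 groups were apart, in mock and after wounding with the mutant below Tak-1. MpLOX8 rose 5.98-fold in Tak-1 (2.58 ± 0.28, edgeR adjusted p = 5.43e-06) and 8.24-fold in the mutant (3.04 ± 0.31, adjusted p = 3.67e-06). The difference of responses, 0.46, did not pass the test and had an interval from -0.44 to 1.36 (adjusted p = 0.675). MpLOX8 was lower in the mutant by -1.32 ± 0.32 in mock (adjusted p = 0.0410) and by -0.85 ± 0.26 after wounding (adjusted p = 0.0457). Both adjusted p-values lie just under 0.05. The mock call was lost without mutant mock library 1 (-1.45, adjusted p = 0.0534), 2 (-1.21, adjusted p = 0.146) or 3 (-1.31, adjusted p = 0.115), without Tak-1 mock library 2 (-1.45, adjusted p = 0.0773) or 3 (-0.83, adjusted p = 0.121), and without wounded libraries Tak-1 3 (0.0504), mutant 1 (0.0503) or mutant A (0.0544). The call after wounding ended when Tak-1 wound library 2 (0.133) or 3 (0.116), mutant wound library 1 (0.173) or A (0.135), or mutant mock library 2 (0.0516) or 3 (0.0562) was left out, with differences from -0.85 to -0.73.

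MpLOX6 was near the detection limit in mutant mock plants. It had 0.879, 3.06 and 1.78 CPM in mock and 4.30, 8.23 and 8.35 CPM in wounded Tak-1 libraries. Mutant mock libraries 1 to 3 had 11, 3 and 2 counts, which are 0.425, 0.158 and 0.0832 CPM, and wounded mutant libraries had 2.73, 2.17 and 3.66 CPM. Depending on the library, 3 counts amount to 0.0937 to 0.158 CPM. Mock and wounded groups did not overlap in either genotype, and neither did the genotypes within a condition. MpLOX6 rose 3.66-fold in Tak-1 (1.87 ± 0.43, edgeR adjusted p = 0.00225) and by a log2 fold change of 3.61 ± 0.58 in the mutant (adjusted p = 0.000170), a size that rests on the few mock counts. Without mutant mock library 1, which has most of these counts, it was 4.56. The difference of responses was 1.74, with an interval from 0.14 to 3.34, and did not pass the test (adjusted p = 0.278). Without mutant mock library 1 it was 2.69 (adjusted p = 0.143), and over the 17 alternatives it ran from 1.26 to 2.69. In mock plants MpLOX6 was lower in the mutant by -3.01 ± 0.59 (adjusted p = 0.0186). That call ended on leaving out Tak-1 mock library 2 (-2.53, adjusted p = 0.0650), or mutant mock library 2 (-2.84, adjusted p = 0.0804) or 3 (-2.60, adjusted p = 0.0714), and also with only the 2 groups compared in the fit (adjusted p = 0.0592). Without mutant mock library 1 the difference was -3.96 (adjusted p = 0.00966). After wounding the difference of -1.27 ± 0.41 did not pass the test (adjusted p = 0.0568), but it did with DESeq2 (adjusted p = 0.0199), and without mutant mock library 1 (0.0357), Tak-1 mock library 1 (0.0347) or 2 (0.0383) or wounded Tak-1 library 1 (-1.53, adjusted p = 0.0349).

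The gemma cup regulator MpGCAM1 was uneven among the same mock libraries. Its levels were 19.4, 58.9 and 25.9 CPM in Tak-1 mock and 20.7, 2.38 and 1.16 CPM in mutant mock libraries 1 to 3. Mutant mock library 1 was the highest of its group for MpLOX6, MpLOX8 and MpGCAM1, and Tak-1 mock library 2 was the highest of its group for MpLOX6 and MpGCAM1 but not for MpLOX8. The genotype difference of MpGCAM1 in mock plants did not pass the test (-2.06 ± 0.75, edgeR adjusted p = 0.155), but did without mutant mock library 1 (-4.33, adjusted p = 0.00119). Its part in the mock differences of MpLOX6 and MpLOX8 was not tested. The oil body regulator MpC1HDZ had 43.5 to 55.4 CPM in mock and 154 to 183 CPM in wounded Tak-1, and 38.9 to 51.5 and 82.4 to 106 CPM in the mutant. Its response was lower in the mutant by -0.73 ± 0.17 (adjusted p = 0.0391), a call that ended on leaving out any 1 of 8 libraries (Tak-1 mock 1 or 2, Tak-1 wound 1 or 2, mutant mock 2 or 3, mutant wound 1 or A), with adjusted p from 0.0709 to 0.102. The other oil body genes, MpSYP12B and MpERF13, were called in no contrast. The part of MpC1HDZ in the lower responses of MpLOX2, MpLOX14 and MpCYP74N2 was not tested.

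Between genotypes the 6 genes can be read together. In mock plants 2 of 6 (MpLOX6 and MpLOX8) were called lower in the mutant and none higher, where 4.52% of tested genes were called, 2.00% higher and 2.51% lower. Neither of these 2 was called when mutant mock library 2, mutant mock library 3 or Tak-1 mock library 2 was left out, with only the mock groups in the fit, or with the replicate number as a block, and the count over all genes then fell from 620 to between 138 and 210. After wounding 4 of 6 (MpLOX2, MpLOX8, MpLOX14 and MpCYP74N2) were lower and none higher, where 14.5% were called, 5.03% higher and 9.51% lower. The median log2 difference of the 6 genes was -0.29 in mock and -1.22 in wounded plants. The contrasts share libraries, so they are not independent of each other. Since the 6 genes were chosen with earlier results known, these counts do not test the set.

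**Figure D3:**
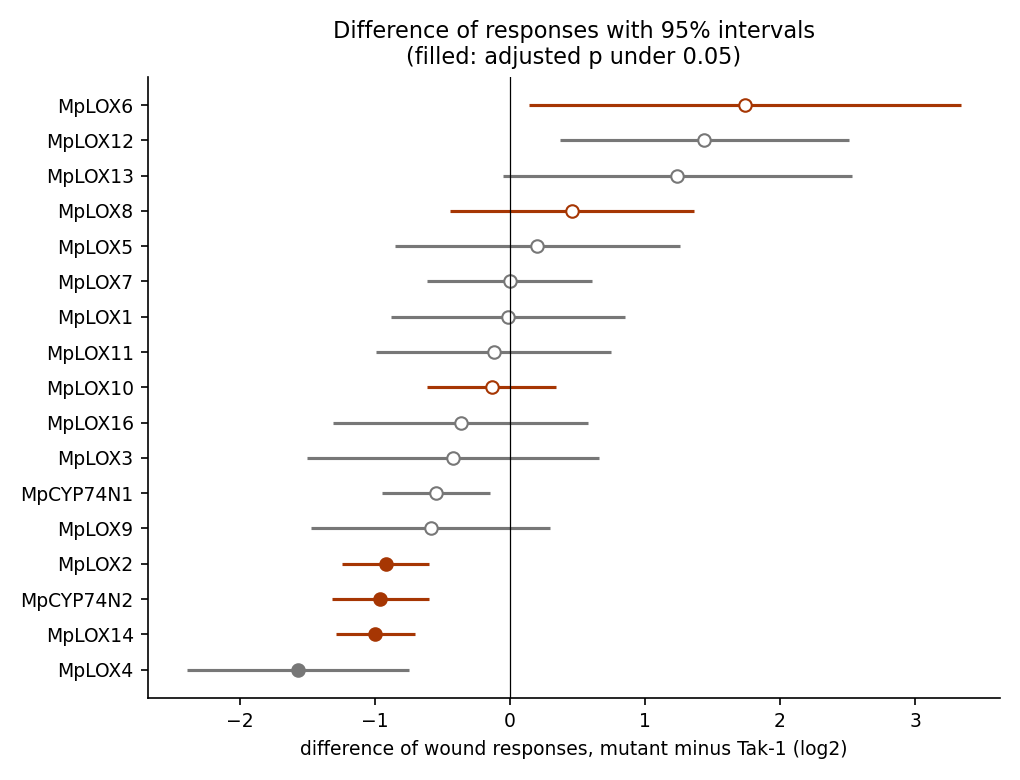
Difference of the wound responses (mutant minus Tak-1, log2) with 95% intervals for the 15 tested lipoxygenases and both CYP74 genes, with the 6 genes described here in brown and filled points for an adjusted p under 0.05. The 4 filled points are MpLOX4, MpLOX14, MpCYP74N2 and MpLOX2, all below 0.

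Of the 15 lipoxygenases tested, 7 rose, 3 fell and 5 were not called in Tak-1, and 8 rose, 2 fell and 5 were not called in the mutant. Over all tested genes the shares were 30.0% higher and 25.0% lower in Tak-1 and 28.6% and 22.6% in the mutant, so the falls were no more frequent among lipoxygenases than overall. For the difference of responses 3 of 15 were lower and 12 not called, where 2.59% of all genes were lower. MpLOX2 and MpLOX14, both among the 6 chosen genes, are part of that count. MpLOX15 had too few counts for a test. Among the lipoxygenases outside the 6 genes, MpLOX1 and MpLOX4 had the largest rises.

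MpLOX1 (Mp2g00660) had 6.97 to 8.75 CPM in mock and 128 to 206 CPM in wounded Tak-1, and 9.19 to 21.9 and 223 to 326 CPM in the mutant. It rose by 4.29 ± 0.31 and 4.27 ± 0.31 on the log2 scale (edgeR adjusted p = 1.15e-07 and 1.34e-07). The difference of its responses, -0.01, did not pass the test and had an interval from -0.88 to 0.85. MpLOX1 was higher in the mutant by 0.77 ± 0.32 in mock and 0.75 ± 0.26 after wounding. Neither passed the test (adjusted p = 0.210 and 0.0735). The wounded difference did with only the wounded groups in the fit (0.0314) and with upper-quartile scaling (0.0460). It also did without wounded Tak-1 library 1 (0.0324) or mutant mock library 1 (0.0420) or 2 (0.0159). MpLOX4 (Mp5g21680) had 5.11 to 11.4 and 212 to 333 CPM in mock and wounded Tak-1, and 5.65 to 8.61 and 59.8 to 96.6 CPM in the mutant. It rose by 4.99 ± 0.29 and 3.42 ± 0.28 (adjusted p = 1.16e-08 and 4.35e-07) and was lower in the wounded mutant by -1.87 ± 0.24 (adjusted p = 0.000243). The difference of its responses was -1.57 ± 0.38 (adjusted p = 0.0429). That call was lost on leaving out any 1 of 9 libraries, namely Tak-1 mock 1 or 2, wounded Tak-1 2 or 3, mutant mock 1, 2 or 3, or wounded mutant 1 or A, with adjusted p from 0.0506 to 0.110.

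MpLOX3 (Mp3g06610) averaged 11.4 ± 1.54 CPM before and 30.2 ± 10.2 CPM after wounding of Tak-1 and 4.49 ± 2.77 and 9.13 ± 2.03 CPM in the mutant (SD, n = 3). It rose by 1.41 ± 0.34 in Tak-1 (edgeR adjusted p = 0.00333) and by 0.99 ± 0.37 in the mutant (adjusted p = 0.0392), a call lost without mutant mock library 2 (0.107) or 3 (0.0999) or wounded mutant library A (0.122) or B (0.0752), with only the mutant groups in the fit (0.0749) and with upper-quartile scaling (0.0676). In wounded plants MpLOX3 was lower in the mutant by -1.73 ± 0.34 (adjusted p = 0.00483). MpLOX5 (Mp1g21930) rose in the mutant by 0.99 ± 0.35 (adjusted p = 0.0325), a call lost without mutant mock library 2 (0.0976) or 3 (0.123) or any of the wounded mutant libraries (0.0515 to 0.0801), and with upper-quartile scaling (0.0548). In Tak-1 MpLOX5 had 0.79 ± 0.34, which did not pass the test (adjusted p = 0.0640) but did with DESeq2 (0.0373), with only the Tak-1 groups in the fit (0.0476), and when mutant mock library 1 (0.0245), mutant mock library 3 (0.0437) or Tak-1 mock library 2 (1.25, adjusted p = 0.00486) was left out. The difference of the MpLOX5 responses was 0.20 (adjusted p = 0.902). MpLOX16 (Mp2g16000) fell in both genotypes, by -1.71 ± 0.31 and -2.08 ± 0.32 (adjusted p = 0.000374 and 0.000128). MpLOX12 (Mp8g01650) fell by -2.01 ± 0.36 in Tak-1 (adjusted p = 0.000394) and had -0.57 in the mutant, which did not pass the test. In wounded plants the MpLOX12 level was higher in the mutant, by 1.16 ± 0.36. That difference did not pass the test (adjusted p = 0.0513) but did with DESeq2 (0.00934) and with upper-quartile scaling (0.0420). MpLOX13 (Mp8g15570) fell by -2.02 ± 0.43 in Tak-1 (adjusted p = 0.00143) and had -0.78 in the mutant, which did not pass the test. The difference of responses was not called for MpLOX12 (1.44, adjusted p = 0.161) or MpLOX13 (1.24, adjusted p = 0.347). How the counting treated reads that match several similar lipoxygenases is not stated, so levels of single genes and of their sum are uncertain to that extent.

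Summed over all 16 lipoxygenases, the level was 1060 ± 42.5 CPM in mock and 3626 ± 272 CPM in wounded Tak-1, and 898 ± 55.6 and 2047 ± 144 CPM in the mutant (SD, n = 3). The 5 lipoxygenases described here held 89.9% and 85.9% of these reads in mock and wounded Tak-1, and 90.0% and 81.0% in the mutant. MpLOX14 went from 55.5% to 14.0% of the lipoxygenase reads in Tak-1 and from 54.8% to 10.4% in the mutant. MpLOX2 went from 22.2% to 52.6% in Tak-1 and from 21.7% to 40.8% in the mutant, and MpLOX10 from 11.5% to 18.3% and from 13.2% to 28.8%. MpLOX1 took 3.25% to 6.06% of the reads in wounded Tak-1 libraries and 10.9% to 16.8% in wounded mutant libraries, and MpLOX4 took means of 7.53% and 3.65%. These are shares of reads, which also depend on gene length and on the levels of the other lipoxygenases. MpLOX14 itself went from 588 to 504 CPM in Tak-1, which did not pass the test, and from 492 to 211 CPM in the mutant.

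**Figure D4:**
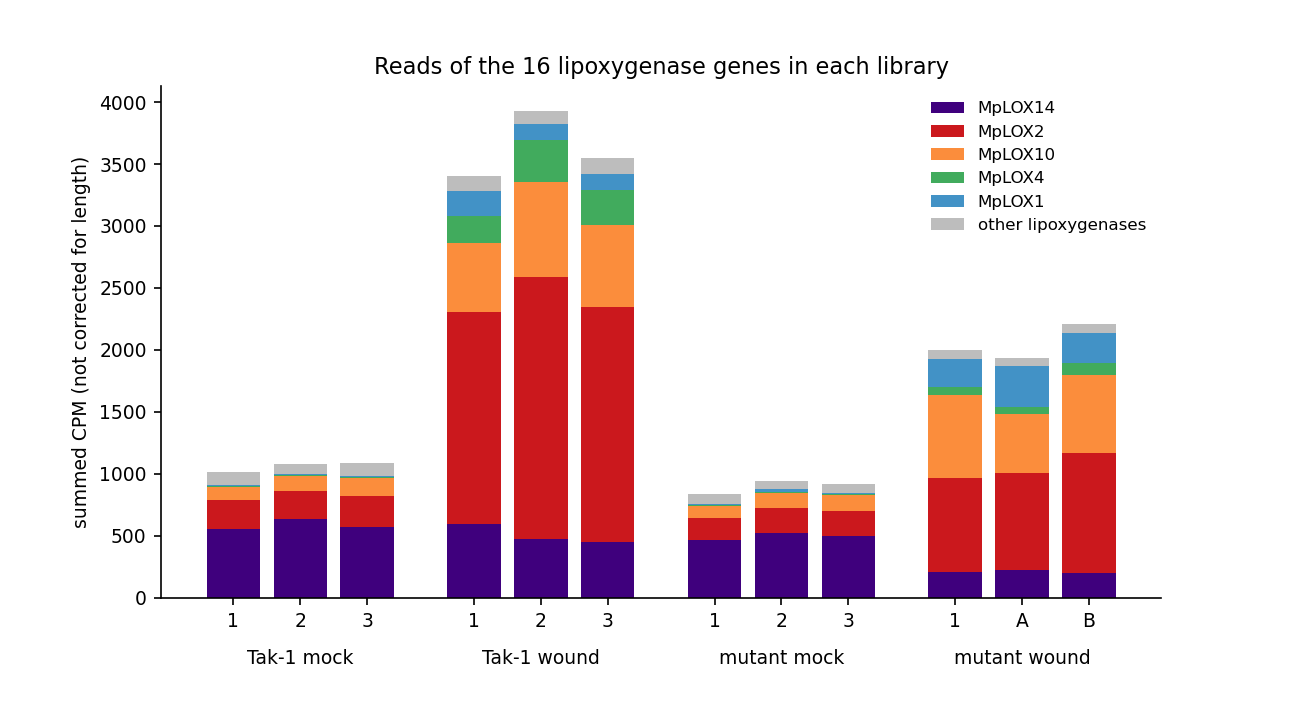
CPM of the lipoxygenase genes stacked in each library, not corrected for gene length, with the numbers or letters of the libraries under the bars. Mock libraries of both genotypes sum to 837 to 1089 CPM, wounded Tak-1 libraries to 3403 to 3930 CPM and wounded mutant libraries to 1936 to 2210 CPM.

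The other CYP74 gene, MpCYP74N1 (Mp3g21350, further name MpAOS1), did not follow MpCYP74N2. It had 86.8 to 89.6 CPM in mock and 81.2 to 106 CPM in wounded Tak-1, and 64.5 to 89.0 and 49.3 to 66.3 CPM in the mutant. In Tak-1 it did not pass the test (0.09, interval from -0.19 to 0.37). In the mutant it fell by 0.46 on the log2 scale (edgeR adjusted p = 0.0101), a call lost without mutant mock library 3 (0.0504), and in wounded plants it was lower in the mutant by -0.73 ± 0.13 (adjusted p = 0.00249). The difference of its responses, -0.55, did not pass the test (adjusted p = 0.149). It did without mutant mock library 1 (-0.68, adjusted p = 0.0430). No gene of the reference table carries a symbol of allene oxide cyclase or OPDA reductase, so later steps are not described.

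Upstream of the lipoxygenases, 14 desaturase genes were tested. In Tak-1, 8 rose, 3 fell and 3 were not called, and in the mutant 3 rose, 3 fell and 8 were not called. The mutant counts are near or below the shares over all genes, 28.6% higher and 22.6% lower, and in Tak-1 those shares were 30.0% and 25.0%. For the difference of responses 2 were lower and 12 not called, where 2.59% of all genes were lower. MpFAD11 (Mp5g20700) had 499 to 569 and 838 to 1030 CPM in mock and wounded Tak-1 and 164 to 193 and 180 to 219 CPM in the mutant. Its response was lower in the mutant by -0.73 ± 0.14 (edgeR adjusted p = 0.0121). MpFAD11 was lower in the mutant in mock plants (-1.55 ± 0.10, adjusted p = 3.68e-06) and wounded plants (-2.27 ± 0.10, adjusted p = 1.35e-07). So was MpFAD8 (Mp3g17690), named here after its values were seen (-2.23 ± 0.24, adjusted p = 0.000475, and -2.56 ± 0.23, adjusted p = 1.99e-05). For MpFAD5 the difference was -0.49 ± 0.12 (adjusted p = 0.0422), a call lost on leaving out 1 library in 9 of 12 cases, with adjusted p from 0.0616 to 0.117. For MpFAD6 the difference of -0.94 did not pass the test (adjusted p = 0.255).

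Downstream, 4 genes of jasmonate signalling were tested, of which 2 rose and 2 fell in each genotype, where 54.9% of all genes were called in Tak-1 and 51.1% in the mutant. MpJAZ (Mp6g06230), whose product represses the pathway, had 27.0 to 30.6 and 199 to 247 CPM in mock and wounded Tak-1, and 25.5 to 26.9 and 104 to 144 CPM in the mutant. Its response was lower in the mutant by -0.74 ± 0.16 (edgeR adjusted p = 0.0257), which no longer passed on leaving out Tak-1 mock library 1 (0.0720), mutant mock library 2 (0.0579), or wounded mutant library 1 (0.0590) or A (0.0653). MpNINJA, an adaptor of JAZ proteins, had a difference of -0.08 and MpCOI1, the receptor, one of 0.09, and neither passed the test (adjusted p = 0.703 and 0.636).

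The genes with the most similar profile were found as those with the smallest root mean square difference of centred log2 CPM over the 12 libraries, among 2537 tested genes with a symbol. For MpLOX2 these were Mp4CL2, named for 4-coumarate CoA ligase of phenylpropanoid synthesis, at 0.0867, and MpJAZ at 0.144, where the median gene was at 1.38. For MpCYP74N2 they were MpDAHP, named for the entry enzyme of the shikimate pathway, and MpEDS5, both at 0.130, with the median gene at 1.11. For MpLOX10 they were the transcription factor genes MpMADS1 at 0.156 and MpWRKY12 at 0.163, with a median of 1.24. MpLOX14 lay closest to MpCYP816A1 at 0.235 and the auxin transporter gene MpPIN1 at 0.283, with a median of 0.674. MpLOX8 lay closest to MpBHLH3 at 0.453 and to MpLOX2 at 0.463, and MpLOX6 to MpOMT13 at 0.520 and MpLEA-like4 at 0.543. Among the 6 genes themselves the closest pair was MpLOX2 and MpCYP74N2 at 0.342, and MpLOX14 was between 1.33 and 1.99 from each of the others. These distances are descriptions of libraries that share groups, and a gene with few counts has a larger distance from counting error alone.

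In the gene order of the reference table, MpLOX6 and MpLOX8 have 2 genes between them, and MpLOX8 and MpLOX7 (Mp2g12250) also 2. MpLOX7 was called in no contrast, while MpLOX6 and MpLOX8 rose in both genotypes. Beside MpLOX8 lies MpGH17.6, named as a glycosyl hydrolase, which had 0 to 0.0937 CPM in mock and 1.92 to 5.88 CPM in wounded libraries of both genotypes. MpLOX2 lies next to MpLOX15, which had at most 0.292 CPM in any library, and to Mp2g23390, which rose in both genotypes, in Tak-1 from 41.3 to 157 CPM and in the mutant from 35.7 to 112 CPM. Next to MpLOX14, Mp8g12940 rose in Tak-1 from 85.3 ± 9.18 to 148 ± 7.72 CPM (0.79 ± 0.09, edgeR adjusted p = 5.29e-06) and fell from 79.5 to 64.1 CPM in the mutant (-0.31 ± 0.09, adjusted p = 0.00942). The difference of the responses of Mp8g12940 was -1.10 ± 0.12 (adjusted p = 0.000606), beside -1.0 for MpLOX14, and its gene product has no name in the reference table. Without stated strandedness, reads from overlapping neighbours cannot be told apart. On the other side of MpLOX14, Mp8g12920 had a difference of 0.41 that did not pass the test (adjusted p = 0.479). Beside MpCYP74N2, Mp5g16240 rose in both genotypes, in Tak-1 from 0.302 to 6.17 CPM and in the mutant from 0.0949 to 3.57 CPM, while Mp5g16270 had no counts. The neighbours of MpLOX10 went opposite ways: Mp8g09060 fell by 0.36 in Tak-1 and 0.34 in the mutant, and MpCYP704-like20, at low levels, rose in Tak-1 from 0.387 to 1.13 CPM and in the mutant from 0.462 to 1.29 CPM.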

How the data were processed

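The table deposited by the authors gives raw counts for each gene in 12 libraries. Per the submitters' processing notes, Trim Galore, HISAT2, HTSeq and edgeR were used; no version is listed. Genome build, annotation and strand setting: not given in the sources used here. All value columns were used. Columns of libraries A and B share a header and enter as unnumbered members of their group.

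The analysis used edgeR 4.0.16 under R 4.3.3: filterByExpr by group, TMM, and a quasi-likelihood fit of 4 group means over the 12 libraries. The fit had 8 residual degrees of freedom and a prior of 4.46, and the biological coefficient of variation was 0.121. A total of 5 two-sided contrasts were tested, with Benjamini-Hochberg adjustment over 13726 genes and calls under 0.05. Between libraries of a group the chi-square of counts over its degrees of freedom was 8.13 to 27.3, where counting error alone gives about 1. No pair was therefore counted as 1 library. Replicates are independent pools per the labels. The fit was tested on simulated data. Floors of 3 counts cover counting error only. Log2 CPM for likeness used a prior count of 2.

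Names came from a RefSeq gene table of assembly MpTak2_v7.1, in which 17641 of 20574 IDs matched and 3091 of these have a symbol. It holds no sequences or coding lengths, so no sequence is shown and the planned levels per length were not computed. The genes described, the gene lists and the tests were chosen with earlier results of these data known. Named genes are the 6 genes, other lipoxygenase and CYP74 genes called in a contrast, up to 3 desaturase and 3 signalling genes by the smallest p for the difference of responses, the 2 closest profiles per gene, and direct neighbours. MpLOX7 is named for its place, and MpLOX15 as the lipoxygenase not tested. Alternatives were RLE and upper-quartile scaling, no low-count filter, the 2 compared groups alone, each library left out, a replicate block and DESeq2 1.42.0. Leaving out both unnumbered libraries was added after seeing the data.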

Additional observations from a re-analysis of the deposited data

Results flagged for a closer look

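Among the 15 lipoxygenases and 2 CYP74 genes tested, the wound response differed between the genotypes by the test of the difference itself for 4. Each was lower in the mutant. Over all tested genes 3.29% were called in this contrast, 2.59% lower and 0.692% higher. The log2 difference, mutant minus Tak-1, was -0.92 for MpLOX2, -1.0 for MpLOX14, -0.96 for MpCYP74N2 and -1.57 for MpLOX4 (edgeR adjusted p = 0.00408, 0.00183, 0.00681 and 0.0429). The first 3 calls were kept in each of 17 alternatives run, with adjusted p up to 0.0158, 0.0232 and 0.0223. The MpLOX4 call was lost in most of the 17 alternatives, with values for single libraries left out above. Groups of 3 libraries are too small for a test of single outlying libraries.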

How the results depend on the processing

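For the 6 genes over 5 contrasts, 511 of 546 alternative values stayed on the same side of the threshold. Of the others, 24 lost a call and 11 gained one, and no called value changed sign. Some uncalled values did change sign. The difference of responses ran from -0.24 to 0.06 for MpLOX10 and from -0.02 to 0.69 for MpLOX8. The MpLOX10 genotype difference ran from -0.13 to 0.07 in mock and from -0.28 to 0.02 after wounding. The lost calls are those of MpLOX6 and MpLOX8 between genotypes, and the gained calls those of MpLOX14 in Tak-1 and MpLOX6 in wounded plants. Leaving out both unnumbered wounded mutant libraries, an alternative chosen after seeing the data in which the lone wounded mutant library is assumed to vary like the other groups, gave 4667 called genes for wounding in the mutant (7019 with all libraries), 252 for the difference of responses (451), 304 between genotypes in mock (620) and 876 after wounding (1996). It ended the MpLOX8 calls between genotypes (adjusted p = 0.0621 in mock and 0.138 after wounding). DESeq2 called 799 genes for the difference and 1056 in mock, and fitting only the 2 mock groups called 210. Leaving out 1 library at a time gave 261 to 480 called genes for the difference, 138 to 727 in mock, 1153 to 2287 after wounding, 6675 to 7724 for wounding in Tak-1 and 6202 to 7123 in the mutant. For the difference, the count fell by over 1.5 times without Tak-1 mock library 1 (296) or 3 (290) or wounded mutant library 1 (261). In mock it did so without Tak-1 mock library 1 (247) or 2 (145) or mutant mock library 2 (138) or 3 (173), and in wounded plants without wounded mutant library 1 (1153). Upper-quartile scaling moved the median of all genes by -0.19 in Tak-1 and -0.14 in the mutant and gave 3122 higher and 5504 lower calls in Tak-1 and 3180 and 4595 in the mutant. It gave 1263 and 1151 between wounded genotypes, and ended the MpLOX8 call there (adjusted p = 0.0516). MpGCAM1 had a wound response of -0.02 ± 0.77 in the mutant with all libraries, which did not pass the test (edgeR adjusted p = 0.985). On leaving out 1 library it ran from -0.54 to 2.24, and it was called as a rise of 2.24 (adjusted p = 0.00935) without mutant mock library 1. The cause of these moves was not tested. The alternative for levels per length was not run, since no coding lengths were given. Depth limits MpLOX6, which had 2 to 11 counts per mutant mock library.

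The replicate numbers do not pair the libraries. Deviations of same-numbered libraries correlated at -0.113, -0.0322 and -0.0876 between mock and wounded Tak-1 and at -0.0893, -0.119 and 0.104 between the mock genotypes. In these comparisons no library correlated best with its own number. With the replicate block 7124 genes were called for wounding in Tak-1 (7539 without) and 181 between the mock genotypes (620), where MpLOX6 and MpLOX8 were not called (adjusted p = 0.0605 and 0.0788). The unnumbered libraries leave no block for wounded mutant plants.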
